A study of Mus musculus with 4 samples.

Results

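Cd109 and 7 related genes, A2m, Pzp, Mug1, Mug2, C3, C4b and Hc, were read in lung tumours of mice with and without CD109. They were taken as members of the thioester protein family by gene identity, and every array probe whose accession belonged to them was used, which gave 12 probes for the 8 genes among 23787 genes with a named probe. The tumours came from KP mice of strain C57BL/6J, a lung adenocarcinoma model in which Cre starts the tumours, and the labels give the model by its name only. All animals had received adenoviral Cre in the trachea 88 to 92 days before RNA was taken, and the sources used here do not give the promoter driving Cre. There were 2 CD109+/+ tumour samples, both female, and 2 CD109-/- samples, replicate 1 male and replicate 2 female. The sources used here give no ages.

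The family takes its name from a reactive thioester bond buried in many of its proteins, which is exposed when a protease cuts them. CD109 is anchored in the cell membrane and is known as a co-receptor that dampens TGF-beta signalling. A2m, Pzp, Mug1 and Mug2 encode protease traps of the alpha-2-macroglobulin type, made mainly in liver. C3, C4b and Hc encode complement components C3, C4 and C5, and C5 belongs to the family by descent although it has lost the thioester. C3 is made by lung epithelium and macrophages as well as by liver.

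The 4 samples were read on 1 Agilent array each, with a single dye, and a value is the log2 of the processed signal minus the 75th percentile of that array, so that 0 stands for a signal of 557 to 688 units. The scanner software marked 64.3% to 67.0% of the spots as well above background, and 0 spots were saturated. Pearson's r between arrays was 0.968 to 0.982 within a genotype and 0.968 to 0.982 across genotypes, so the genotypes did not separate as a whole. The lung markers Epcam, Nkx2-1 and Cdh1 and all 5 markers of alveolar type 2 cells were well above background on all 4 arrays. Differences are CD109-/- minus CD109+/+ with the standard error (SE) of limma's fit and n = 2 per genotype. The labels do not call the replicates separate animals. The 2 CD109-/- samples differ in sex and so came from different animals, whereas this is unknown for the 2 female CD109+/+ samples. The p-values cover only the spread between these samples, which may be technical within CD109+/+. In bulk tumour RNA, fewer cells of a type and less RNA per cell cannot be told apart. An exact two-sided permutation test of 2 against 2 cannot give a p below 0.333, and the precision is limited by having 4 arrays.

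Cd109 signal was seen in both CD109+/+ tumours and was not well above background in either CD109-/- tumour. C3 and C4b had higher values in both CD109-/- tumours by every probe, at 1.51 to 1.91 times the CD109+/+ mean. Mug2 had lower values in CD109-/- tumours, Hc overlapped between genotypes, and Pzp was set apart by a single CD109+/+ tumour. A2m, Mug1 and the second Mug2 probe stayed near or below background. None of these differences passed the threshold over all probes.

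Of the 12 member probes, 8 probes of 6 genes were tested, the condition being that a genotype had its 2 arrays well above background. At limma's Benjamini-Hochberg adjusted p under 0.05, 0 of the 8 passed, as did 0% of the 35769 probes tested, the lowest adjusted p among all being 0.288. At an unadjusted p under 0.05 with limma, the Cd109 probe and 1 of the 2 C4b probes passed, against 6.81% of all probes. This count of 2 ranged from 1 to 4 on leaving out each array. The C4b probe was not among the probes counted without CD109+/+ replicate 1, CD109+/+ replicate 2 or CD109-/- replicate 2, with an unadjusted p of 0.0921, 0.109 and 0.0929 in limma's fit. With the replicate number as a block the count was 4, the additions being Mug2 (limma's unadjusted p = 0.0302) and Hc (0.0112). The Cd109 probe entered the test only through the CD109+/+ arrays and therefore had to differ. Of the 7 member probes well above background on all 4 arrays, 5 did not overlap between genotypes, 4 higher in CD109-/- tumours and 1 lower. Among all probes of that kind 36.7% did not overlap, 16.1% higher and 20.6% lower. The 4 higher probes stand for only 2 genes, so they are not independent of each other.

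**Figure D1:**
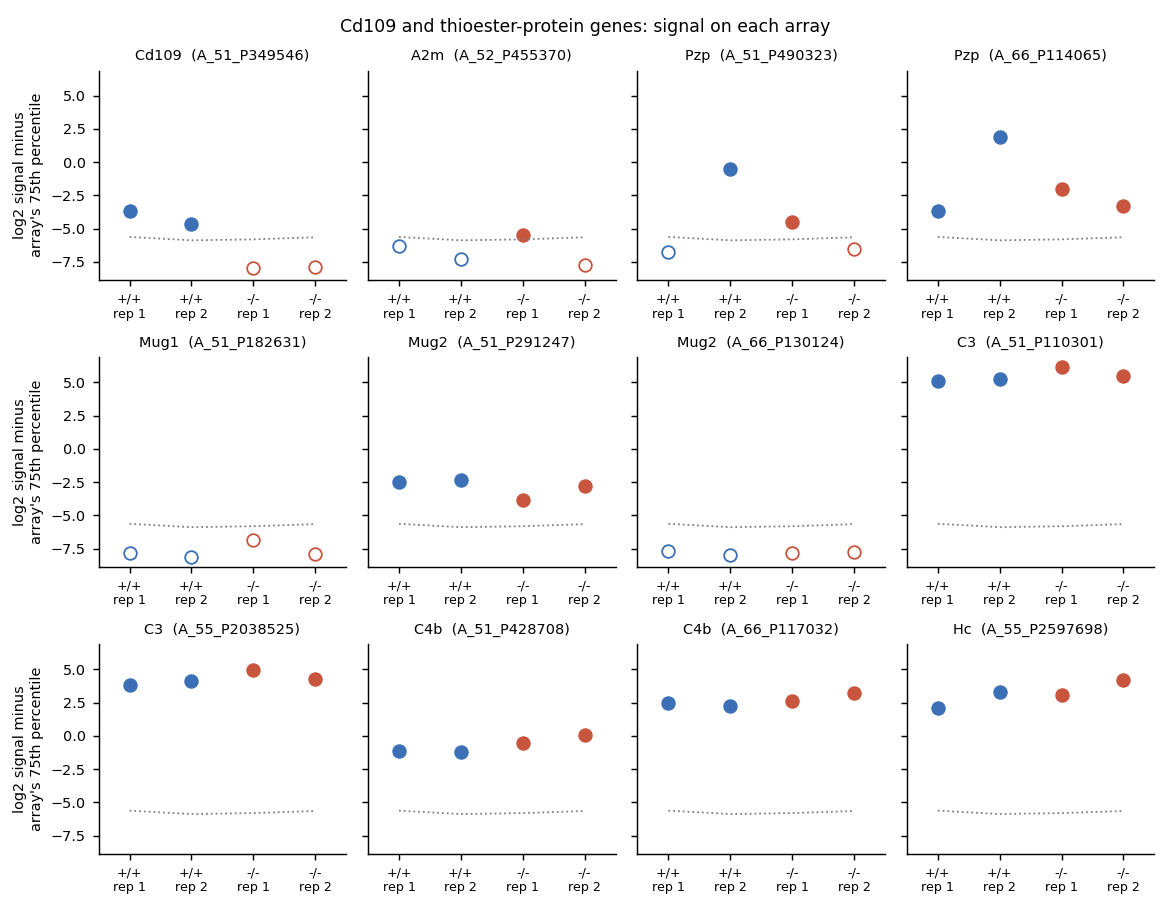
Each panel plots 1 of the 12 member probes, with the 4 arrays on the horizontal axis and the log2 signal minus the array's 75th percentile on the vertical axis. Blue points are CD109+/+ and red points CD109-/-, filled points are well above background and open points are not, and the dotted line joins the lowest value called well above background on each array. Cd109 is open on both CD109-/- arrays, Pzp is highest on CD109+/+ replicate 2, and all C3 and C4b points lie above the dotted line.

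Cd109 was read by the single probe A_51_P349546, matched through its transcript accession. Its processed signal was 42.8 ± 4.97 units (the scanner software's own spot error) on CD109+/+ replicate 1 and 26.4 ± 3.63 on CD109+/+ replicate 2. On CD109-/- replicates 1 and 2 the signals were 2.68 ± 2.68 and 2.94 ± 2.95, no larger than their spot errors. The lowest signals called well above background on the 4 arrays lay between 11.3 and 13.7 units, so that the gene was weakly measured even where it was present. On the log2 scale these were -3.70 and -4.66 in the CD109+/+ tumours, against -7.98 and -7.87 in CD109-/-, without overlap. Cd109 was at least 2.92-fold higher in CD109+/+ tumours, a bound that sets the CD109+/+ mean of -4.18 against the lowest detectable values, with a mean of -5.73, in place of the CD109-/- values. The measured difference was -3.74 ± 0.38 (SE; limma's adjusted p = 0.299 over all probes, unadjusted p = 0.000176). With another background correction (normexp with an offset of 50) it was -0.72. Both CD109-/- values lay at the floor and the probe was tested only through the CD109+/+ arrays. The SE and p given here therefore do not measure the spread of Cd109 between CD109-/- tumours. The sources used here do not give where this probe lies relative to the deletion, so its loss follows the label but does not show which part of the gene is missing.

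C3, the central component on which the complement pathways converge, was read by probes A_51_P110301 and A_55_P2038525. The first gave log2 values of 5.08 and 5.25 in the CD109+/+ tumours, against 6.16 and 5.49 in CD109-/-. The second gave 3.82 and 4.11 in the CD109+/+ tumours, against 4.98 and 4.25 in CD109-/-. By each probe both CD109-/- tumours lay above both CD109+/+ tumours, and CD109-/- replicate 1 was the highest. The differences were 0.66 ± 0.31 (SE; 95% interval -0.14 to 1.46) and 0.65 ± 0.33 (-0.21 to 1.50), or 1.58-fold and 1.56-fold. Neither passed (limma's adjusted p = 0.762 and 0.773). The differences shrank to 0.33 and 0.28 without CD109-/- replicate 1, and leaving out CD109-/- replicate 2 gave 0.99 and 1.01. CD109-/- replicate 1 was the only male sample, so sex and genotype cannot be told apart in its values, here and for the genes below. The gap between the probes varied by only 0.12 across the 4 arrays, so that both gave the same order of samples.

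The promoter of C3 is shown because both C3 probes ranked the samples alike and the gene is a known target of C/EBP factors in inflammation. The C4b probes also ranked the samples alike, but no promoter window was available for C4b. The 250 bases before its start lie at chr17:57228137-57228386 (GRCm38.p6, minus strand, from RefSeq) and are printed 5′ to 3′, with capitals marking the match to TTGCNNAA, the C/EBP core.
C3: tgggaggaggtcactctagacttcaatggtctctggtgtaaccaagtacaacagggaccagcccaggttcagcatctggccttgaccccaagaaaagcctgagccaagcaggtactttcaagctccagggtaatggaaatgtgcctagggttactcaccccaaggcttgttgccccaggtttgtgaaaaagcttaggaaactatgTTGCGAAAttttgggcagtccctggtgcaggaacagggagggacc
The match lay 45 to 38 bases before the start. TTGCNNAA was found on either strand in 9.56% of the 32851 windows of this length in the RefSeq table. TATAAA (the TATA box), GTTAAT (HNF1) and TTCNNNGAA (STAT), searched on both strands in the same way, had no match in this window and are present in 12.4%, 6.43% and 7.02% of all windows. A match describes letters and not a bound site.

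C4b, the component that the classical and lectin pathways cleave to build a C3 convertase, was read by probes A_51_P428708 and A_66_P117032. The first gave -1.15 and -1.21 in the CD109+/+ tumours, against -0.56 and 0.08 in CD109-/-. The second gave 2.43 and 2.22 in the CD109+/+ tumours, against 2.64 and 3.21 in CD109-/-. Again neither probe overlapped between genotypes, but here CD109-/- replicate 2 was the highest. The first probe differed by 0.93 ± 0.30 (SE; 95% interval 0.16 to 1.71), or 1.91-fold, with limma's adjusted p = 0.659 (unadjusted p = 0.0270). The second differed by 0.60 ± 0.30 (-0.16 to 1.36), or 1.51-fold, with limma's adjusted p = 0.767. Without CD109-/- replicate 2 these differences were 0.61 and 0.31. The near-identical copy C4a, listed by RefSeq as a transcribed pseudogene with 4 genes between it and C4b, gave -3.45 and -3.59 against -3.14 and -2.55 by its own probe (0.68 ± 0.29; limma's adjusted p = 0.756). How far the probes of C4b and C4a share signal was not tested, so the split between these copies is uncertain.

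Hc encodes C5, which is cleaved into the anaphylatoxin C5a and the start of the membrane attack complex. Probe A_55_P2597698 gave 2.13 and 3.28 in the CD109+/+ tumours, against 3.04 and 4.17 in CD109-/-. The genotypes overlapped, since CD109+/+ replicate 2 lay above CD109-/- replicate 1, and replicate 2 was the higher sample in both genotypes. The difference of 0.91 ± 0.56 (SE; 95% interval -0.52 to 2.33) did not pass (limma's adjusted p = 0.798). It ranged from 0.33 without CD109+/+ replicate 1 and 0.34 without CD109-/- replicate 2 to 1.48 without CD109+/+ replicate 2.

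**Figure D2:**
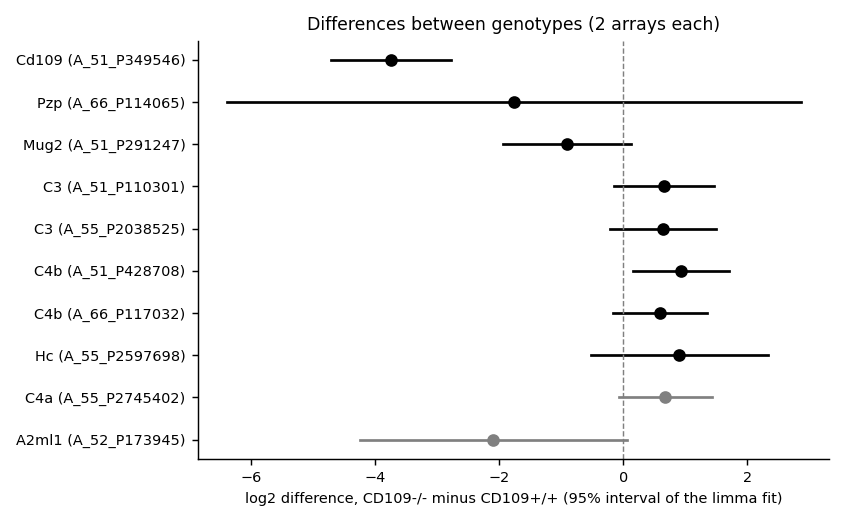
The log2 difference between genotypes, CD109-/- minus CD109+/+, is on the horizontal axis for the 8 tested member probes (black) and for C4a and A2ml1 (grey), with lines for the 95% interval of limma's fit on 2 arrays per genotype. The intervals of Cd109 and of 1 C4b probe lie wholly to 1 side of 0, and that of Pzp spans -6.39 to 2.86.

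Markers of other cells also differed between the same samples. The 6 macrophage markers, all well above background on all 4 arrays, summed to 32.1 and 43.2 times the array's 75th percentile in CD109+/+ tumours and to 72.9 and 57.8 in CD109-/- tumours. These sums put the 4 arrays in the same order as both C3 probes, whereas without Lyz2, the brightest marker, they were 24.5 and 19.3 against 35.2 and 30.4. The 5 fibroblast markers, also well above background on all 4 arrays, summed to 20.2 and 20.6 in CD109+/+ and to 31.6 and 28.9 in CD109-/- tumours. Without Dcn, the brightest on average, they summed to 13.5 and 9.14 against 20.1 and 17.3. Not every marker followed its sum. The fibroblast marker Col1a1 and the macrophage marker Marco were highest on CD109+/+ replicate 1, with differences of 0.06 and 0.54. The 5 club and basal airway markers, all well above background on all 4 arrays, summed to 83.2 and 119 against 221 and 255, and without Scgb1a1, the brightest, to 23.1 and 28.1 against 41.5 and 34.1. The basal markers did not move together: Krt5 differed by 1.15, Krt14 by -1.59 and Trp63 by -0.05. The alveolar type 2 markers summed to 1063 and 1060 against 1050 and 994. The part of these cells in the C3 and C4b values was not tested.

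Among the protease traps, Pzp had the widest spread of the family. Pzp encodes pregnancy zone protein, the main circulating alpha-macroglobulin of mice. Probe A_66_P114065 gave -3.65 and 1.88 in the CD109+/+ tumours, against -2.02 and -3.27 in CD109-/-. The 2 CD109+/+ tumours were thus 46.0-fold apart, and both CD109-/- tumours lay between them. Probe A_51_P490323, not tested because only CD109+/+ replicate 2 and CD109-/- replicate 1 were well above background, gave -6.74 and -0.55 in the CD109+/+ tumours, against -4.47 and -6.56 in CD109-/-. Both probes were highest on CD109+/+ replicate 2 and second highest on CD109-/- replicate 1. The difference by the first probe was -1.76 ± 1.80 (SE; 95% interval -6.39 to 2.86; limma's adjusted p = 0.878). It turned to 1.00 when CD109+/+ replicate 2 was left out and stood at -4.52 without CD109+/+ replicate 1.

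Hepatocyte genes stood out on the same array. Of 8 hepatocyte markers, all 8 were well above background on CD109+/+ replicate 2, against 5, 7 and 7 on CD109+/+ replicate 1 and CD109-/- replicates 1 and 2. Albumin (Alb) gave 2.49 and 5.25 in the CD109+/+ tumours, against -3.19 and 1.17 in CD109-/-. Ahsg, the gene of the liver glycoprotein fetuin-A, gave -4.10 and 1.05 against -3.26 and -2.76. Serpina1a, an alpha-1-antitrypsin gene, gave -6.80 and 0.94 against -5.48 and -4.97. Apoa2 (1.16 to 1.52) and transferrin (Trf, 8.05 to 8.30) differed little between arrays. The 8 markers summed to 323 and 342 in CD109+/+ and to 277 and 271 in CD109-/- tumours, of which Trf made up most, and without Trf to 8.40 and 46.0 against 2.70 and 5.40. Alb was then the brightest marker on both CD109+/+ arrays. It ordered the arrays unlike Pzp, with CD109+/+ replicate 1 second and CD109-/- replicate 1 lowest. Fgb was well above background only on CD109+/+ replicate 2. The part of such cells or of such a programme in the Pzp values was not tested.

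**Figure D3:**
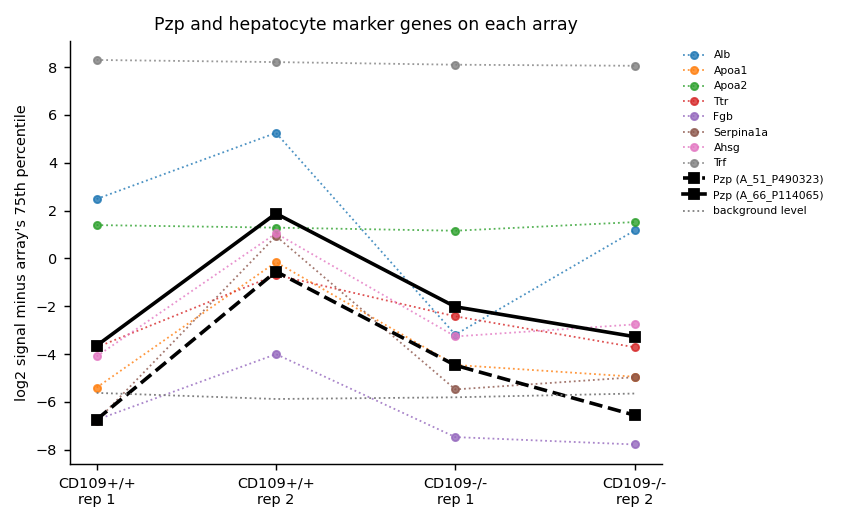
The 4 arrays are on the horizontal axis and the log2 signal minus the array's 75th percentile on the vertical axis. The 2 Pzp probes are black squares and the 8 hepatocyte markers coloured points. The dotted grey line, labelled background level, joins the lowest value called well above background on each array. Lines join the points of 1 probe for legibility only. Both Pzp probes and Alb, Apoa1, Ttr, Fgb, Serpina1a and Ahsg are highest on CD109+/+ replicate 2, whereas Trf and Apoa2 are nearly level.

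A2ml1, a further macroglobulin gene with 2 genes between it and Pzp on chromosome 6, is no member but was measured alongside. Its probe gave 0.62 and 1.92 in the CD109+/+ tumours, against -1.93 and 0.27 in CD109-/-. Like Pzp it was highest on CD109+/+ replicate 2, but unlike Pzp it was lowest on CD109-/- replicate 1 and did not overlap between genotypes. The difference was -2.09 ± 0.84 (SE; 95% interval -4.24 to 0.05; limma's adjusted p = 0.736).

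Mug1 and Mug2 encode murinoglobulins, the single-chain macroglobulins of rodents. Mug2 probe A_51_P291247 gave -2.52 and -2.30 in the CD109+/+ tumours, against -3.83 and -2.80 in CD109-/-. Both CD109-/- tumours lay below both CD109+/+ tumours, and CD109-/- replicate 1 was the lowest. The difference was -0.91 ± 0.40 (SE; 95% interval -1.94 to 0.13; limma's adjusted p = 0.757), or 1.87-fold lower in CD109-/- tumours. Leaving out CD109-/- replicate 1 gave -0.39, and leaving out CD109-/- replicate 2 gave -1.42. The other Mug2 probe, A_66_P130124, was not well above background on any array, with values from -7.98 to -7.64, so the 2 Mug2 probes disagree on whether the gene was detected. Mug1 was not well above background on any array either, with values of -7.83 and -8.14 in the CD109+/+ tumours, against -6.83 and -7.89 in CD109-/-. RefSeq lists Mug1, Mug2 and the pseudogene Mug-ps1 in a row on chromosome 6 with 2 genes between neighbours, and cross-hybridisation between them was not tested.

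A2m, which lies in the same run of genes with 2 genes between it and Mug1, was well above background on 1 array only. Its probe A_52_P455370 gave -6.33 and -7.27 in the CD109+/+ tumours, against -5.46 and -7.75 in CD109-/-. The single detected sample was CD109-/- replicate 1, where the signal was 15.3 ± 3.27 units (spot error). The genotypes overlapped and the gene was not tested. A2m protein is a plasma carrier of proteases and cytokines, and the mouse gene of this name is distinct from Pzp.

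The promoters of Pzp, Mug1, Mug2 and Hc are shown because these genes, known from liver, shared a short motif. They were picked by that match, and several motifs were searched, so the count given below is a description and not a test. The 250 bases before each start, from RefSeq on GRCm38.p6, are printed 5′ to 3′ with capitals marking GTTAAT on either strand, the core of the sequence bound by the liver factor HNF1, and, in Hc, also TATAAA. They lie at chr6:128526721-128526970 (Pzp, minus strand), chr6:121838291-121838540 (Mug1, plus strand), chr6:122006548-122006797 (Mug2, plus strand) and chr2:35061413-35061662 (Hc, minus strand).
Pzp: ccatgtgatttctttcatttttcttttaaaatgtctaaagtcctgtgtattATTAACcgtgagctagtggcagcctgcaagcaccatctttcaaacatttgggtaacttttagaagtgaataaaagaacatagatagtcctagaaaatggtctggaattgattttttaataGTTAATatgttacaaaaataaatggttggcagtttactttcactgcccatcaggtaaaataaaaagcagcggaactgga
Mug1: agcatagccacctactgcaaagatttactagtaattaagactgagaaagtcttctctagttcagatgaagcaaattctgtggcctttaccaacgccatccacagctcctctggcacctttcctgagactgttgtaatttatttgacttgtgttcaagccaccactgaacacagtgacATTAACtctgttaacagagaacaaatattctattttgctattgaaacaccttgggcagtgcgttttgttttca
Mug2: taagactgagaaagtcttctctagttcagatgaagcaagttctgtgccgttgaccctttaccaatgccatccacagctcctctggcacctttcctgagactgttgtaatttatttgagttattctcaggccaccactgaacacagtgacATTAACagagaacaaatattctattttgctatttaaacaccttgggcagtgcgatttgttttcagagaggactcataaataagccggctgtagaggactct
Hc: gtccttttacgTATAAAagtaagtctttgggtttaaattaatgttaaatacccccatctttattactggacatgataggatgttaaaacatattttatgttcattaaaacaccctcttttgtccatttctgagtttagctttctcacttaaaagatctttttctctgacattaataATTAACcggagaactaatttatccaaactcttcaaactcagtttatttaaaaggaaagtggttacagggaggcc
GTTAAT was found in 4 of the 5 member windows in the table, all but that of C3, against 6.43% of all windows. No window was available for Cd109, A2m or C4b. The 4 windows with a match each held a smaller share of G and C than that of C3. All windows were counted without matching for base composition. GTTAAT is itself rich in A and T, and the part of base composition in this count was not tested. Pzp had 2 matches, 199 to 194 and 79 to 74 bases before the start, and Mug1, Mug2 and Hc had 1 each, at 73 to 68, 101 to 96 and 74 to 69 bases. The matches did not overlap one another or another motif searched. The windows of Mug1 and Mug2 were near copies, with 196 of 206 aligned bases identical (95.1%), so their matches are not independent. Of these genes, Pzp and the detected Mug2 probe were highest on CD109+/+ replicate 2 and Hc on CD109-/- replicate 2, and Mug1 was not well above background.

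The genes whose values over the 4 arrays lay closest to each member were listed as a description, out of 14322 genes well above background on all 4 arrays. Closeness is the root mean square distance between values centred on each gene's mean, in log2 units. For Pzp the closest were Ahsg (0.649), Gc, the vitamin D binding protein of plasma (0.708), and Hoxb3os (0.757). For C4b they were Lrp12 (0.0169), Tox2 (0.0219) and Fam124a (0.0324), and for C3 they were Arl6 (0.0316), Idh3a (0.0339) and Irx3 (0.0357). For Mug2 they were Ankrd2 (0.0422), Mettl27 (0.0428) and Lrrc10b (0.0465), and for Hc they were Nme5 (0.0725), Thrsp (0.0933) and Adrb3 (0.0959). The wide swing of Pzp left it farther from its nearest genes than the other members were from theirs.

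The genes that act on the members or bind them were then read by list, each gene by its brightest tested probe. Over all 16439 genes the median difference was 0.00, and 50.3% had a higher value in CD109-/- tumours. At an unadjusted p under 0.05 with limma 4.99% were higher and 2.41% lower, and 0 genes passed limma's adjusted threshold. Among the convertases and activating proteases, 8 of 10 were tested and all 8 had higher values in CD109-/- tumours, with a median of 0.74. Without the filter on dim probes, 9 of 10 had higher values. Of the 8 tested, 3 had an unadjusted p under 0.05 with limma. C2, which joins cleaved C4 in the C3 convertase, gave -0.82 and -0.97 in the CD109+/+ tumours, against 0.65 and 1.42 in CD109-/-, a difference of 1.93 ± 0.33 (limma's adjusted p = 0.503). The near-identical C1s1 and C1s2, proteases of the C1 complex that cleave C4 and C2, differed by 1.11 ± 0.35 and 1.01 ± 0.34, and their probes may share signal. The count of 3 became 1 when any array but CD109+/+ replicate 2 was left out, and 5 with median scaling or normexp. This count was also 5 with the mean-variance trend, and 4 with the replicate block or with only probes well above background on all 4 arrays. The fibroblast and macrophage sums given above were higher on the same arrays, and their part in the values of this list and of the regulators was not tested.

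Among 7 tested regulators, 2 had an unadjusted p under 0.05 with limma and higher values and 1 with lower values, at a median of 0.41. That median was 1.45 without CD109-/- replicate 1, 0.26 without CD109+/+ replicate 1 and 0.27 without CD109-/- replicate 2. Serping1, the C1 inhibitor gene, gave 0.86 and 1.40 in the CD109+/+ tumours, against 2.35 and 2.58 in CD109-/-, a difference of 1.34 ± 0.28 (limma's adjusted p = 0.506). Factor I (Cfi), the protease that cuts C3b and C4b, went the other way, with 4.49 and 3.53 in the CD109+/+ tumours, against 1.82 and 2.63 in CD109-/-, a difference of -1.79 ± 0.47 (limma's adjusted p = 0.542). Neither of these genes overlapped between genotypes, and Cfi was past an unadjusted p of 0.05 neither without CD109+/+ replicate 1 nor without CD109-/- replicate 1.

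Of 11 receptors 10 were tested, 9 with higher values and a median of 0.48, and 3 had an unadjusted p under 0.05 with limma. The count of 9 depends on the probe, since other tested probes of some of these genes gave a negative difference. C5ar1, the receptor of C5a, gave -3.06 and -2.84 in the CD109+/+ tumours, against -1.43 and -1.98 in CD109-/-, a difference of 1.25 ± 0.28 (limma's adjusted p = 0.510). With normexp the C5ar1 difference was 0.69. Itgax and Itgb2, the subunits of the iC3b receptor CR4, differed by 0.86 ± 0.21 and 0.78 ± 0.23. Itgam, which pairs with Itgb2 in CR3, stood at -0.50 ± 0.23, and Lrp1, the clearance receptor of protease-bound macroglobulins, at 0.45 ± 0.32. The count of 3 became 0 without CD109+/+ replicate 1 and 1 without CD109+/+ replicate 2. Several of these receptors are leukocyte genes, and the macrophage sums were higher on the same arrays. The 3 T cell markers summed to 0.88 and 0.84 in CD109+/+ tumours, against 1.46 and 1.37 in CD109-/-. Without Cd3e, the brightest, they summed to 0.16 and 0.25 against 0.59 and 0.63. The part of macrophages and T cells in the receptor values was not tested. In the terminal pathway 3 of 6 genes were tested, C6 (1.00 ± 1.03), C7 (0.12 ± 0.28) and C8g (0.35 ± 0.42), and 0 had an unadjusted p under 0.05. Without CD109+/+ replicate 1 their median was -0.18, with C6 at -0.30 and C7 at -0.18, and without CD109-/- replicate 2 C8g was at -0.20. Itgam, Lrp1 and the 3 terminal genes are named outside the rule for named genes, with their values known.

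**Figure D4:**
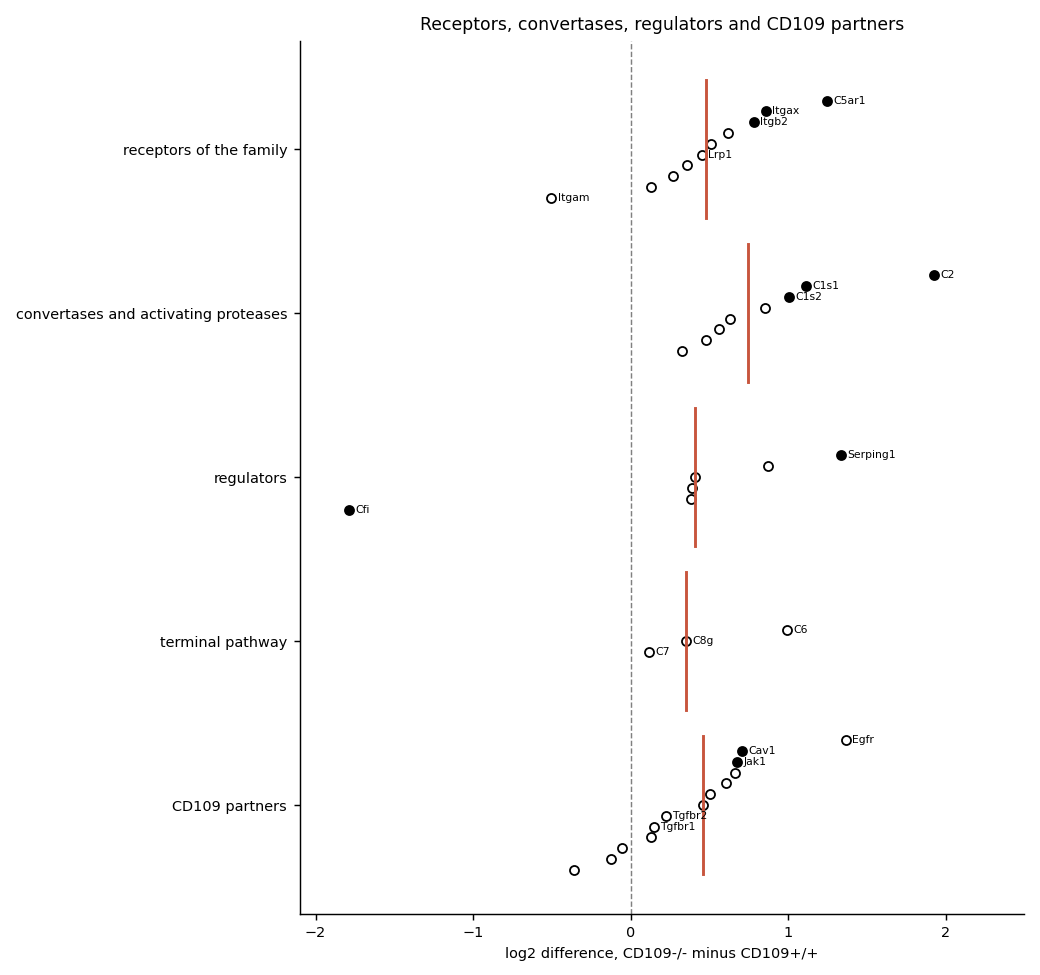
Each point is a gene's log2 difference, CD109-/- minus CD109+/+, on the horizontal axis, grouped by list on the vertical axis, with filled points at an unadjusted p under 0.05 in limma's fit and the median of all tested genes of the list as a red line. Genes named in the text are labelled, and 1 regulator is not plotted. Cfi at -1.79 stands apart on the left, and C2 at 1.93 lies farthest to the right.

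All 13 genes listed as partners of CD109 in TGF-beta, EGF receptor and JAK-STAT3 signalling were tested, and 10 had higher values in CD109-/- tumours, with a median of 0.46. The count of 10 depends on the probe, since other tested probes of listed genes changed direction both ways. The other probe of Tgfbr1 gave -0.10. The TGF-beta type I and type II receptor genes Tgfbr1 and Tgfbr2 differed by 0.15 ± 0.31 and 0.23 ± 0.21, with 95% intervals of -0.67 to 0.96 and -0.33 to 0.78. Cav1, the caveolin through which CD109 is known to direct TGF-beta receptors to degradation, gave -2.67 and -3.04 in the CD109+/+ tumours, against -2.31 and -1.97 in CD109-/-, a difference of 0.71 ± 0.26 (limma's adjusted p = 0.669). By the other tested probe of Cav1 the difference was 0.44. Jak1, a kinase of cytokine receptors, differed by 0.68 ± 0.25 (limma's adjusted p = 0.669). Cav1 and Jak1 were the 2 partners with an unadjusted p under 0.05 with limma. Tgfbr1 was -0.17 without CD109+/+ replicate 1. The count of 2 became 0 without CD109+/+ replicate 1, without CD109+/+ replicate 2 or without the filter on dim probes, and 1 without either CD109-/- replicate or with quantile normalization. Egfr had the largest difference in this list, 1.37 ± 0.58, with -2.64 and -2.31 in the CD109+/+ tumours, against -0.30 and -1.92 in CD109-/-, and is named after its value was seen. Its difference was 0.56 without CD109-/- replicate 1, below those of Cav1 (0.88) and Jak1 (0.72) in that setting. The median of the list was 0.30 without CD109-/- replicate 2.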

How the data were processed

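Total RNA (100 ng per sample) was labelled with Cy3, per the labels' protocols. The authors' scanner files, made with Agilent Feature Extraction 12.1.0.3 per the file headers, hold linear intensity values that were background-subtracted and detrended but not scaled between arrays. Another deposited table, also of intensity values from the authors, is equal to those times 1 constant per array (1.04 to 1.21), with column medians of 58.8, 76.1, 59.5 and 69.2, and served as an alternative only. Spots with an outlier mark were left out and spots of 1 probe averaged. Accessions were matched, without versions, to a RefSeq table of GRCm38.p6 (34566 of 56605 probes named). The arrays were designed on another build, so only promoter coordinates are printed. The comparison used limma 3.58.1 (lmFit, eBayes) under R 4.3.3, two-sided, without covariates, with Benjamini-Hochberg adjustment over all 35769 probes or 16439 genes, and the procedure was tested on simulated data. A probe with an outlier mark on any array was not fitted (7 probes). The arrays share 1 slide and 1 scan day. Named genes were all members, the listed genes with an unadjusted p under 0.05 (at most 4 a list), Tgfbr1, Tgfbr2 and Cav1. Egfr, Itgam, Lrp1, C6, C7 and C8g were named after their values were seen, and 1 regulator that the rule names is not reported here. Members and lists were chosen with earlier results of these data known. Alternatives were quantile normalization, median scaling, normexp, the authors' values, 2 other filters, a replicate block, sex as covariate, a mean-variance trend, a gene's mean over probes, and leaving out each array.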

Additional observations from a re-analysis of the deposited data

How the results depend on the processing

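Under quantile normalization, median scaling, normexp and leaving out each array, the 8 tested member probes kept their direction with 1 exception. The exception was Pzp (A_66_P114065) without CD109+/+ replicate 2, at 1.00, with a range of -4.52 to 1.00 on leaving out each array. The authors' values, the filters, the replicate block and the trend leave a difference as it is by construction, and with 0 probes passing, staying short of the adjusted threshold says nothing about stability. Among other named genes, without CD109+/+ replicate 1 Tgfbr1 turned to -0.17 (range over arrays left out -0.17 to 0.47), C6 to -0.30 (-0.30 to 2.29) and C7 to -0.18 (-0.18 to 0.41), C8g turned to -0.20 without CD109-/- replicate 2 (-0.20 to 0.90), and C7 to -0.028 with normexp. The lowest adjusted p of any member was 0.0999, for Cd109 without CD109-/- replicate 2, and with normexp the lowest was 0.740. The replicate numbers are not stated to pair samples, and the deviations of equal numbers correlated at r = 0.347 over probes. With the replicate block 0 probes passed and 3947 probes (1896 genes) had an unadjusted p under 0.05, against 2437 (1218) without it. Leaving out each array gave 0 to 2 probes and 0 genes passing, and 1042 to 4579 probes and 553 to 1930 genes at an unadjusted p under 0.05; the lowest counts came without CD109+/+ replicate 1 and the highest without CD109-/- replicate 2. Passing at an unadjusted in place of an adjusted p gave 2437 probes. Sex could only be fitted by resting on the female samples, which gave differences equal to those without CD109-/- replicate 1. The planned naming by a gene name column was not run, and normexp used the median spot signal. Signals near background limit Cd109, A2m, Mug1 and 1 probe each of Pzp and Mug2.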
